A study of Mus musculus with 2 samples.

Results

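The apolipoprotein L (Apol) genes listed in the deposited expression table are described here, with Apol7c as the member of highest level. They were taken as the rows whose gene symbol is Apol followed by a digit, which gave 6 of the 4898 rows of the table: Apol7c, Apol10b, Apol9a, Apol9b, Apol7b and Apol7e. The sheet name calls the rows of the table differentially expressed genes, with no threshold or direction. Ranks, medians and shares below are therefore places among listed genes, not among all expressed genes. The family drew attention because Apol7c stood among the highest rows while the median of the family was low, so that the levels below are a description and no test was made on them. The cells were of the DC1940 line, C57BL/6 mouse dendritic cells of the CD8α+ kind, wild type in genotype, transduced with an empty vector and stimulated with pIC. pIC is a synthetic double-stranded RNA and an agonist of the receptor TLR3. Poly(A) RNA of 2 libraries was sequenced, and the table gave 1 FPKM value per gene for this 1 group, the authors' own value over the libraries. FPKM divides the fragments of a gene by its transcript length and by the size of the library, so levels of different genes can be set beside each other per length. The values therefore carry no SD and no n, the depth is unknown, and levels in unstimulated cells are not analysed here. DC1940 is a single cell line, and the time in pIC was not stated for these libraries.

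Apolipoprotein L proteins carry amphipathic helices that let them insert into membranes, and several of them form channels or pores. The best known is human APOL1, the serum factor that lyses trypanosomes, whereas most other members act inside cells. Many family members are induced by interferons or inflammatory signals. In mouse dendritic cells of the cross-presenting type, the Apol7c protein has been described to rupture phagosomes, which lets engulfed antigen reach the cytosol. Apol9a and Apol9b are near copies of each other, are known as interferon-stimulated genes in mouse, and have been described as antiviral.

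In the GENCODE M21 annotation of GRCm38, the assembly also called mm10, 13 of 14 Apol genes stand on chromosome 15, and the antisense gene Apol7d is on chromosome 1. Of the 14 genes, 12 are protein-coding, and all 6 listed genes were among these 12. For comparison, 22.2% of all RefSeq protein-coding genes were listed, and nothing is read from the family's share because its members were chosen by being listed. Apol6, Apol7a, Apol8, Apol10a, Apol11a and Apol11b were the other protein-coding members. They have no value here, which does not show that they were silent. Each of the 6 rows carried RefSeq accessions of its own gene and of no other.

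The promoters are shown first, because members with similar promoters stood at very different levels. Each window is RefSeq sequence of GRCm38.p6 from 250 bases before to 50 bases after the annotated start, written 5′ to 3′ on the gene's strand. Apol7c lies at chr15:77533266-77533565, Apol7b at chr15:77447411-77447710, Apol10b at chr15:77596076-77596375 and Apol9a at chr15:77411031-77411330, all on the minus strand, and Apol7e at chr15:77698639-77698938 on the plus strand. Capitals mark matches to the interferon-stimulated response element (ISRE), searched on both strands as GAAA, any 2 bases and GAAA again, so that the matches here read TTTC, any 2 bases, TTTC. In Apol7b, which had no match, they mark the bases aligned to the Apol7c matches.
Apol7c: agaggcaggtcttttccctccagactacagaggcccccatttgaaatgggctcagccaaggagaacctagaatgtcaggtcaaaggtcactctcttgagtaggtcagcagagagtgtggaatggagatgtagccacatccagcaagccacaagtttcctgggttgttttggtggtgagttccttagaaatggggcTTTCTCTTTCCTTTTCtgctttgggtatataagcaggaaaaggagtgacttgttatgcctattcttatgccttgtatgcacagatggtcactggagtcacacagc
Apol7b: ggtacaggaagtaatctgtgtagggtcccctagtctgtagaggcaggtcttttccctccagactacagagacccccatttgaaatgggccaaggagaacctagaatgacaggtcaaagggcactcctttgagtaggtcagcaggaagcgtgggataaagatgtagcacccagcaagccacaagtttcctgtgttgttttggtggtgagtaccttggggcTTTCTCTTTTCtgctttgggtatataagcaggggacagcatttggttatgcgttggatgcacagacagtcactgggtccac
Apol7e: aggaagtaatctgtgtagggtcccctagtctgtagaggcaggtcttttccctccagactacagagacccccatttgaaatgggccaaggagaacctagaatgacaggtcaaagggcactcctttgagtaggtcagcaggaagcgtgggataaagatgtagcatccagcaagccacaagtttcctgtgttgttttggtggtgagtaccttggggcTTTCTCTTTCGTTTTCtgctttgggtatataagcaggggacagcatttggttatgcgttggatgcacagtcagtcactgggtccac
Apol10b: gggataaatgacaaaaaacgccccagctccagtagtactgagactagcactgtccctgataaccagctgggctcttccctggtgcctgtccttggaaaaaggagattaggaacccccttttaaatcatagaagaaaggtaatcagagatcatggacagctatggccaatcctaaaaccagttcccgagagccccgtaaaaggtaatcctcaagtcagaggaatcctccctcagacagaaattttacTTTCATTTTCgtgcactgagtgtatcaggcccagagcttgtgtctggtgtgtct
Apol9a: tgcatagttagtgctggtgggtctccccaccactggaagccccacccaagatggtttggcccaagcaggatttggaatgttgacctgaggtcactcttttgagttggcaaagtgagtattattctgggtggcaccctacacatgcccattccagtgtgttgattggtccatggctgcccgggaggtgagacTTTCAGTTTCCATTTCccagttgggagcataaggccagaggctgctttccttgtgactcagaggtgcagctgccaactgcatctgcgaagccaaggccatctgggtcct

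Apol7c had by far the highest level of the family, and Apol10b was the only other listed member of high level. Apol7c (RefSeq NM_175391; mm10, chromosome 15, 77524867 to 77533315, minus strand) stood at 3996 FPKM, the 5th highest value of the table, above 99.9% of the rows. It alone took 1.42% of the FPKM summed over all listed rows. Genes outside the table have no rank here and no part in that sum. The rows just above it were a row with the symbol of the microRNA Mir703 at 5517 FPKM, the chemokine gene Ccl22 at 7332 and the chemokine gene Ccl5 at 12867. The interval of the Mir703 row (chromosome 5, 98329304 to 98802019) is far longer than a microRNA, so its value cannot be assigned to that microRNA alone. The rows just below it were B2m, which encodes beta-2 microglobulin, at 3006 FPKM, the poly(A)-binding protein gene Pabpc1 at 2806 and Marcksl1, a regulator of actin, at 2637. The B2m row covers chromosome 2, 122120108 to 122186189, and whether its value comes from B2m alone was not tested. In RNA of a whole culture, fewer cells of a kind and less RNA per cell cannot be told apart.

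Apol10b (NM_177820; chromosome 15, 77584158 to 77596125, minus strand) stood at 302 FPKM, above 97.3% of the rows and at rank 134. Its neighbours in the order of levels were Helz2, a helicase gene, at 303 FPKM and Nampt, an enzyme of NAD synthesis, at 299. Apol7c was 13.2-fold higher than Apol10b. These were the only Apol rows among the 470 rows (9.60% of the table) at 100 FPKM or more.

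The remaining 4 members stood low, each under 2 FPKM, as 22.9% of all rows did. Apol9a (chromosome 15, 77403789 to 77411080, minus strand) had 1.73 FPKM and lay above 20.8% of the rows. Its near copy Apol9b (chromosome 15, 77729072 to 77736382, plus strand) had 1.46 FPKM and lay above 18.6%. Both are known interferon-stimulated genes, and their listed levels after pIC were below the lower quartile of the table, 2.32 FPKM. Both values are uncertain, since the copies were 98.4% identical over 1422 aligned bases. How reads that match several copies were assigned is unknown. Apol7b (chromosome 15, 77422209 to 77447460, minus strand) had 0.694 FPKM and Apol7e (chromosome 15, 77698889 to 77719288, plus strand) 0.650 FPKM. By these values, these members of the Apol7 group were 5760-fold and 6145-fold lower than Apol7c. The folds are uncertain, since both values are low and the Apol7b and Apol7e transcripts were 99.3% identical over 2208 aligned bases. With 1 value per gene, whether Apol9a differs from Apol9b, or Apol7b from Apol7e, beyond the spread between libraries cannot be said.

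The family median was 1.59 FPKM, against 9.68 FPKM over all rows. The 6 levels summed to 4302 FPKM, of which Apol7c gave 92.9%, Apol10b 7.01% and the 4 low members together 0.105%. On the scale of log2(FPKM + 1), Apol7c lay 10.67 above the median of the other 5 rows. The plot of member levels over the whole table shows this split into 2 high and 4 low members.

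**Figure D1:**
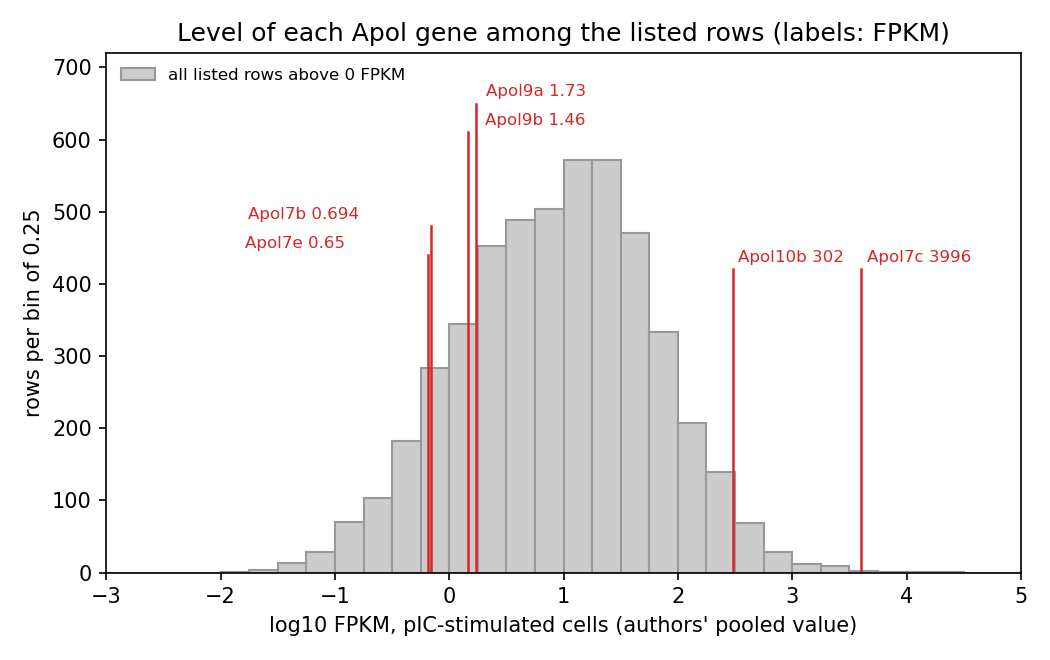
Histogram of log10 FPKM over the listed rows above 0 (bins of 0.25), with a red line at the level of each Apol gene and its FPKM as a label. Apol7c at 3996 and Apol10b at 302 FPKM lie in the right tail, and the other 4 members lie left of the median of 9.68 FPKM.

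Among the listed Apol rows, the high members Apol7c and Apol10b stood next to each other, and the low members lay farther out on both sides. An unlisted protein-coding gene lies between Apol7c and Apol10b. The unlisted Apol11a, Apol10a and Apol11b, at -16.6, -47.8 and 109.1 kb from the Apol7c start, each lie nearer to it than the low members on the same side. They have no value, so levels across the whole cluster are not known. The cluster from Apol7a to Apol8 spans 369 kb (chromosome 15, 77388219 to 77757003) and holds 12 annotated Apol genes, 11 of them protein-coding. Within it 7 rows were listed. The intervals of Apol7c and Apol10b start 59.3 kb apart. Relative to the Apol7c start, Apol7b and Apol9a start at -102.7 and -121.1 kb, and Apol7e and Apol9b at 174 and 204 kb. Between Apol10b and Apol7e stood the seventh row, Gm8221, which RefSeq and GENCODE annotate as a pseudogene (chromosome 15, 77618968 to 77627398). It had 168 FPKM and lay above 94.1% of all rows. Its symbol keeps it out of the family by name, and it was singled out after its value had been seen.

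The listed genes around the cluster all stood below Apol10b. Within 500 kb of the outermost Apol genes on chromosome 15 the annotation has 35 protein-coding genes that are not Apol genes, and 8 of them were listed. Over all RefSeq protein-coding genes, 22.2% were listed. The unlisted neighbours have no value here. The levels of the 8 ran from 0.567 FPKM for Arhgap39 to 40.1 FPKM for Txn2, a mitochondrial thioredoxin, with a median of 1.91. Ppp1r16a had 8.87 FPKM, Ift27, a part of the intraflagellar transport complex, 6.92, Zfp251 2.07, Lrrc24 1.74, Foxred2 1.44 and the DNA helicase gene Recql4 1.29.

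**Figure D2:**
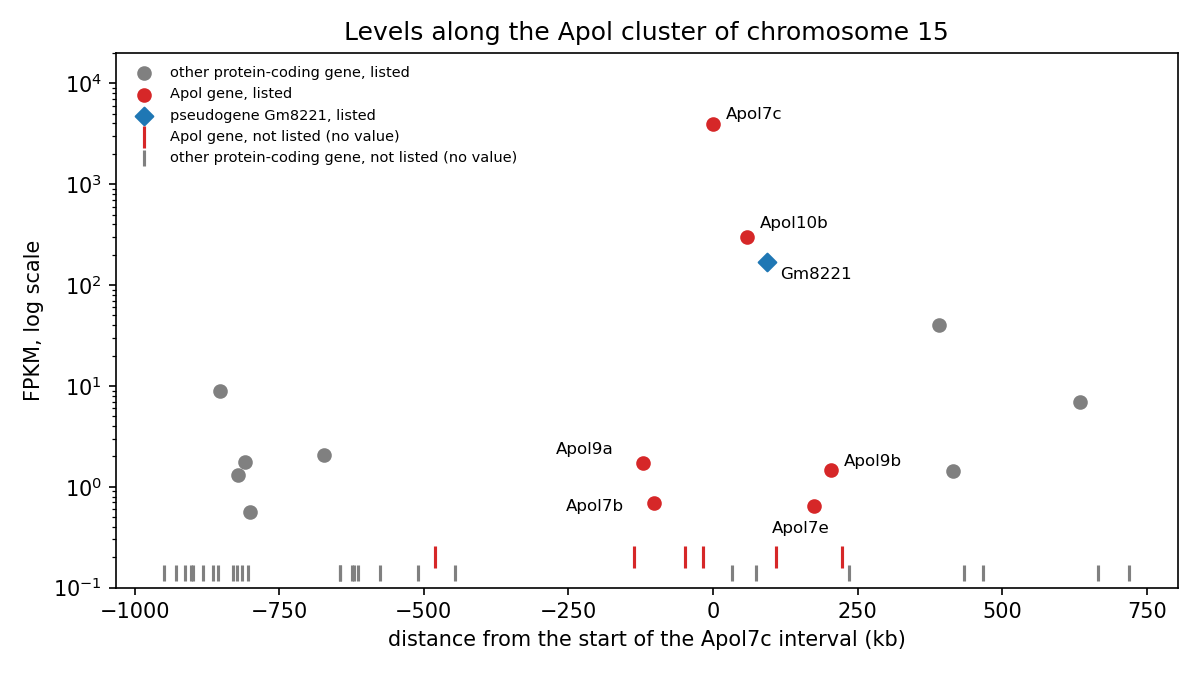
FPKM on a log scale against the distance in kb from the start of the Apol7c interval, for Apol genes (red), the pseudogene Gm8221 (blue) and other protein-coding genes (grey) within 500 kb of the outermost Apol genes. Ticks at the bottom mark genes that were not listed and have no value. Apol7c, Apol10b and Gm8221 are the 3 points above 100 FPKM.

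Copies of the family resemble one another, so the sequence behind each value was compared. In GENCODE M21 transcripts, Apol7b and Apol7e were 99.3% identical over 2208 aligned bases, and Apol9a and Apol9b 98.4% over 1422. Apol7c was more distant from its low relatives, at 89.3% over 1325 bases with Apol7b and 88.7% over 1323 with Apol7e. Among the 7 listed rows of the cluster, the closest to Apol7c was the pseudogene Gm8221, 97.0% identical over the whole 1110 bases of its GENCODE transcript. Apol10b aligned with Apol7c over only 273 bases, at 76.2% identity. The transcripts of Apol7c, Apol7b and Apol7e each have 5 exons and a coding length of 1107 bases. Apol10b has 4 exons and 1002 coding bases, and Apol9a and Apol9b have 3 exons and 930 coding bases each.

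At a length of 50 bases, the transcripts of Apol7c and Apol10b were mostly of their own sequence, and those of the 4 low members mostly shared. Of all stretches of 50 bases in the Apol7c transcript, 26.2% also occurred in a transcript of another gene, chiefly Gm8221 with 16.3% and the unlisted Apol7a with 10.7%. For Apol10b the share was 6.11%. It was 57.5% for Apol9a and 51.4% for Apol9b, in each case with the other copy as the only partner. It reached 75.6% for Apol7b and 78.5% for Apol7e, which shared 1598 stretches with each other. For Gm8221 it was 45.1%, and 30.8% of its stretches occurred in Apol7c. These comparisons use the GENCODE transcript of Gm8221, and the RefSeq transcript behind its FPKM value was not examined. With stretches of 100 bases the share was 6.43% for Apol7c, 0 of 2226 for Apol10b, 8.80% for Gm8221 and 34.9% to 63.9% for the 4 low members. The read length, and how reads that match several copies were assigned, could not be taken from the labels or headers, so the values of Apol9a, Apol9b, Apol7b, Apol7e and Gm8221 are uncertain. Whether reads of Apol7c contributed to the value of Gm8221, or the reverse, was not tested. The Apol7b and Apol7e intervals also overlapped other annotated genes. On the same strand these were the pseudogene Gm6506 for Apol7b and the pseudogenes Gm8233 and Gm18911 for Apol7e. On the opposite strand they were 4930571N24Rik for Apol7b and Gm36329 for Apol7e, and it is not stated whether the counting used strand.

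**Figure D3:**
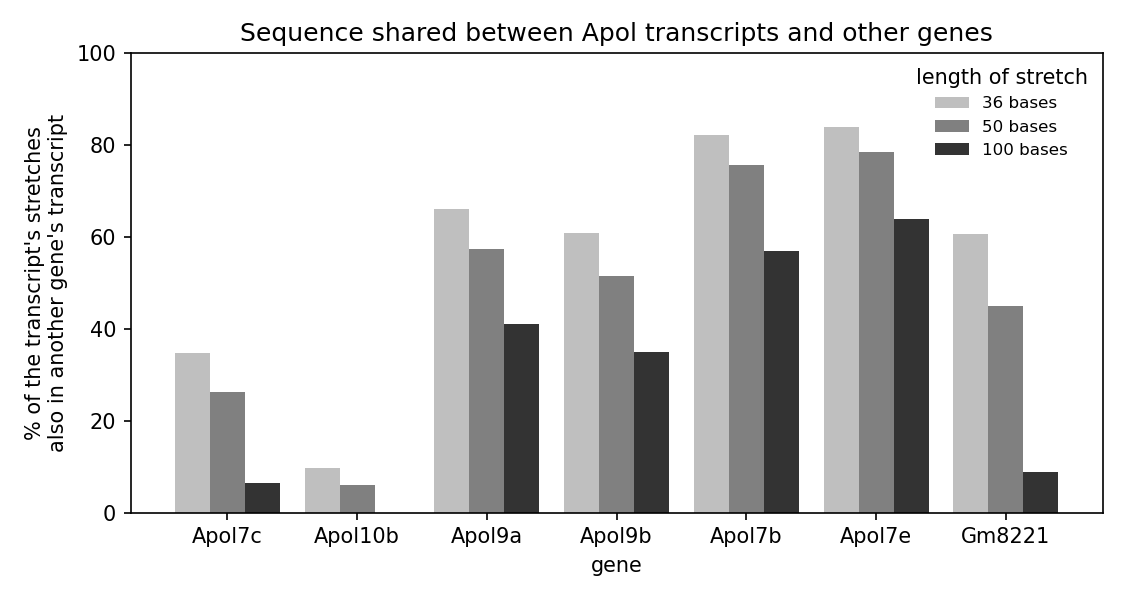
Share of all stretches of 36, 50 or 100 bases of each GENCODE transcript that also occur, on either strand, in a transcript of another gene. Apol10b (0 to 9.65%) and Apol7c (6.43% to 34.7%) share the least among the 6 members, and Apol7b and Apol7e share the most.

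Matches to the ISRE were found in promoters of both high and low Apol genes. At least 1 match was present in 5 of the 6 listed genes and in 3 of the 5 unlisted genes that have a promoter window. Over all 32851 promoter windows of the same length, 3.44% held a match. Related copies share their promoters by descent, so these genes are not independent. Apol7c had 2 overlapping matches, whose first bases lay at positions -55 and -49 from the start. Apol9a had 2 as well, at -59 and -53 from the upstream one of its 2 annotated starts, with a level of 1.73 FPKM. Apol10b had 1 match, at -4. The promoter windows of Apol7b and Apol7e were 99.3% identical over 295 aligned bases. Apol7e kept 2 matches, at -36 and -30, whereas in Apol7b the stretch of 16 bases that held the Apol7c matches aligned to 11 bases, with 5 missing. Both genes were listed under 1 FPKM. Apol7c and Apol7b promoters were 92.0% identical over 262 aligned bases, which leaves out bases opposite gaps, such as the 5 missing ones.

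Other motifs searched gave fewer matches. A TATA box, searched as TATAA on the gene strand after the sequences had been seen, was present in Apol7c at -28, and in Apol7b and Apol7e at -9, against 17.5% of all windows. The gamma-activated site (GAS), TTCNNNGAA on either strand, had no match in the 6 listed genes and 1 in each of the unlisted Apol10a, Apol11a and Apol11b, against 8.30% of all windows. AP-1 (TGANTCA, both strands) matched in Apol9a and Apol9b, against 7.81%. The κB site and the composite element EICE (GGAA, any 2 bases, GAAA, both strands; it can overlap the ISRE) had no match in any of the 11 Apol genes with a window, against 4.51% and 2.72% of all windows. A match is only a match of letters, and binding was not measured.

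**Figure D4:**
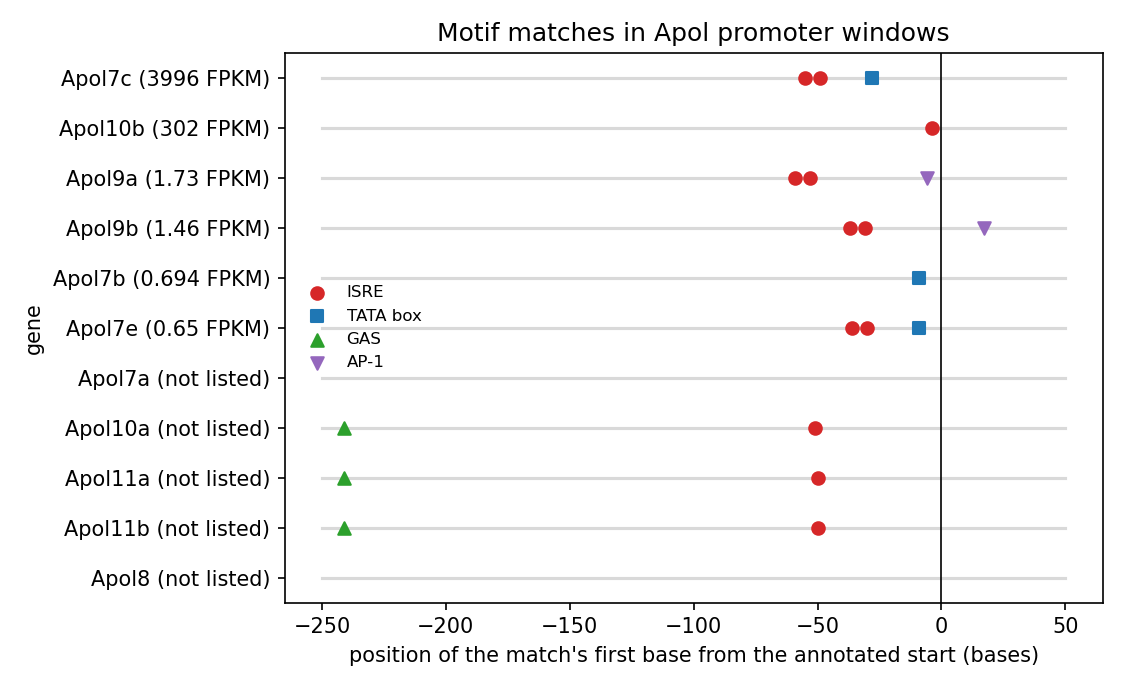
Position of motif matches from the annotated start (bases) in 1 promoter window per Apol gene, ordered by FPKM with unlisted genes at the bottom. ISRE matches stand between -59 and -4, in the genes at 3996 and 302 FPKM, in genes under 2 FPKM and in unlisted genes.

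Levels within 3 other families with interferon-induced members, Gbp, Slfn and Ifit, are given beside the Apol rows. The Apol family was chosen because Apol7c was high and its median low, so a more uneven spread than in these families follows from that choice. The guanylate-binding protein family (Gbp) had 7 rows, led by Gbp2 at 511 FPKM, which took 71.3% of the family's sum. The Schlafen family (Slfn) had 7 rows, led by Slfn2 at 878 FPKM with 57.2% of the sum, and the Ifit family 4 rows, led by Ifit2 at 439 FPKM with 46.8%. The Slfn rows include Slfn10-ps, a pseudogene by its symbol, at 17.1 FPKM, whereas the pseudogene Gm8221 is not among the Apol rows. The annotation has 10 protein-coding Gbp, 8 Slfn and 6 Ifit genes, and unlisted members have no value here. In each of these 3 families no row was under 2 FPKM, and the medians were 27.8, 99.01 and 206 FPKM, against 1.59 FPKM for Apol. The highest row was 4.92-fold above the next one for Gbp, 2.11-fold for Slfn and 1.82-fold for Ifit, against 13.2-fold for Apol. These values are a description, with no replicate check and no test.

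**Figure D5:**
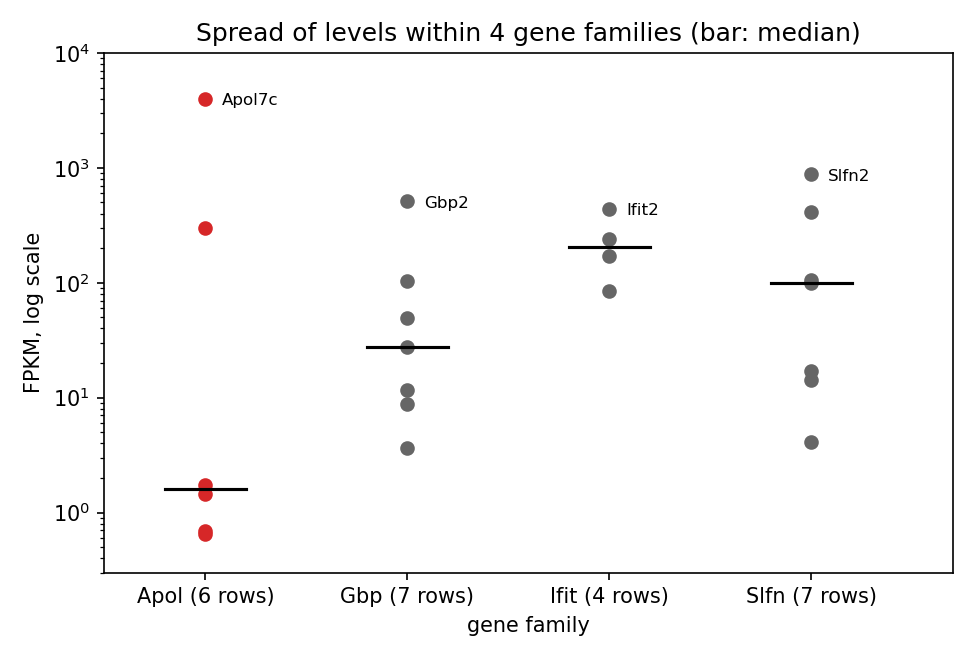
FPKM on a log scale of each listed row of the Apol, Gbp, Ifit and Slfn families, with a bar at the family median. The Apol rows run from 0.650 to 3996 FPKM, and the lowest row of the other families is Gbp8 at 3.65 FPKM.

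Genes that act beside Apol7c in known biology are given as levels after pIC. Listed means present in the authors' table, as 22.2% of all RefSeq protein-coding genes were. An unlisted gene has no value here, which does not show that it was silent. The lists were chosen with earlier results known, so nothing is read from the counts of listed genes here and below. The NADPH oxidase is the enzyme complex that makes reactive oxygen in the phagosome. Of 6 of its genes, 3 were listed, Ncf1 at 369 FPKM, the small GTPase gene Rac2 at 134 and the catalytic subunit gene Cybb at 38.3. Of 18 genes of cross-presentation, 13 were listed, with a median of 60.5 FPKM. The immunoproteasome subunit gene Psmb9 had 642 FPKM, the peptide loading gene Tapbp 638 and the peptide transporter gene Tap1 280. Every listed gene of these lists stood below Apol7c. Apol7c was chosen for its high level, so nothing is read from this order.

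Of 9 genes for other membrane pore or rupture proteins, 3 were listed, all lower than Apol10b. Ninj1, which ruptures the plasma membrane of dying cells, had 30.4 FPKM, the gasdermin gene Gsdmd 25.4 and the necroptosis effector gene Mlkl 20.8. Of 13 genes of the response to damaged endomembranes, 5 were listed, with a median of 216 FPKM. The autophagy receptor gene Sqstm1 had 505 FPKM, the ESCRT-III gene Chmp4b 305 and Lgals3, a galectin that binds sugars exposed on damaged vesicles, 216. Of 16 apolipoprotein genes outside the L family, 3 were listed (18.8%, against 22.2% of all RefSeq protein-coding genes) and none was high. Apool, a mitochondrial inner membrane protein gene, had 22.9 FPKM, its relative Apoo 8.03 in a row that 2 genes share, and Apod, a lipocalin, 2.11.

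Of 16 genes of TLR3, interferon receptor and NF-κB signalling, 14 were listed, with a median of 135 FPKM. Over all RefSeq protein-coding genes, 22.2% were listed. The interferon regulatory factor gene Irf7 had 487 FPKM and the NF-κB genes Relb and Nfkb2 had 299 and 292. Among markers of CD8α+ dendritic cells, 7 of 10 were listed, from 9.81 to 387 FPKM, with the chemokine receptor gene Xcr1 at 387, Cd8a at 292 and Tlr3 at 85.7. Among 21 markers of other cell types, 7 were listed, from 0.176 FPKM for Itgam to 602 for Bst2, which interferon also induces. Of the macrophage markers, C1qa had 48.3 FPKM, Cd68 33.2, Lyz2 5.40 and Adgre1 0.460, and Mertk was not listed. The part of other cell types in the Apol values was not tested.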

How the data were processed

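Per the labels' protocols, poly(A) RNA was sequenced from 2 libraries, which form 1 group. FastQC 0.11.5 and the mapping and assembly tools TopHat2 2.1.0 and Cufflinks 2.2.1, with the build mm10, come from the submitters' processing notes. The authors deposited 1 FPKM value per gene, per the file headers, and the way both libraries enter it is not given there. The sheet name calls the rows differentially expressed genes, with no threshold or direction. 1 line of the table was empty and not used.

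Starts count from 0 in the table and were raised by 1. Transcripts and neighbours came from GENCODE M21, and promoters and accessions from RefSeq GRCm38.p6. Transcripts were aligned locally and promoters globally with Biopython 1.88 (match 2, mismatch -3, gap opening -5, extension -2). Identity was taken over aligned bases only, with gaps left out. Steps were tested on simulated data. Python 3.11.15, pandas 2.3.3, numpy 2.4.6 and matplotlib 3.10.9 were used.

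The comparison with unstimulated cells behind the listing was not analysed here, since only values of stimulated cells were used, and no test was run. The members and lists were chosen with earlier results of these data known. Genes named are the Apol rows, the 3 rows above and below Apol7c, listed neighbours within 500 kb, the highest Gbp, Ifit and Slfn rows and up to 3 leading genes per list. Itgam, Lyz2, Adgre1, Mertk, Gm8221, Gbp8, Slfn10-ps and the rows next to Apol10b were named after their values were seen. A gene of the fixed lists is not reported here.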

Additional observations from a re-analysis of the deposited data

How the results depend on the processing

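No paired analysis was possible because the table has a single pooled value for each gene, so no library could be left out either. The 6 Apol rows were also 6 when matched by accession, 4 with a floor of 1 FPKM and 7 with Gm8221, an alternative chosen after seeing the data. Apol7c lay above 99.9% of the rows under every background tried. The median of the Apol rows, 1.59 FPKM, became 151.7 with a floor of 1 FPKM, which by construction leaves 4 rows, 1.46 without Apol7c and 1.73 with Gm8221. The share of Apol7c in the family's sum, 92.9%, became 92.1% with FPKM multiplied by transcript length and 89.4% with Gm8221, and stayed at 92.9% with the floor. The log2 difference of Apol7c from the median of the other rows, 10.67, became 11.32 with a pseudocount of 0.1, 8.45 with 10 and 10.59 with Gm8221. The limit that depth sets was not measurable without counts, and counting error at the 4 rows under 2 FPKM is unknown.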

Other observations

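The 6 Apol rows and Gm8221 all stood among the first 2406 rows of the table, which are in rising order of locus number and hold 49.1% of all rows. Apol7e and Apol9b followed Gm8221 directly at positions 740 and 741, and Apol9a, Apol7b, Apol7c and Apol10b stood at positions 793 to 796. Apol7e and Apol9b are on the plus strand, and Apol9a, Apol7b, Apol7c and Apol10b on the minus strand. Which statistic, if any, placed rows among the first 2406 was not tested.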
